A study of Homo sapiens with 6 samples.

Results

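Nuclear hormone receptors are transcription factors that bind DNA through zinc fingers, and many of them change their set of partner proteins when a small lipid-soluble ligand, such as a steroid, retinoic acid or thyroid hormone, enters the ligand-binding domain. A list of 46 human genes of this superfamily was followed by gene symbol in RNA-seq of the lung adenocarcinoma line H1975, and 45 of them were found among the 20356 gene IDs of the deposited series table. NR2E3 was listed only in the tables of the single libraries. The series holds 3 libraries of parental H1975, an EGFR-mutant line grown without drug, and 3 of H1975 OR, its osimertinib-resistant derivative cultured with 1 µM osimertinib, a drug that blocks mutant EGFR. RPMI-1640 with 10% FBS was the medium of the parental line and of its derivative, and the level of receptor ligands in the serum is not known. Resistance and the presence of the drug cannot be told apart in this design, and H1975 OR is 1 line.

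Steroid receptors bind DNA as homodimers and are held by chaperones until the hormone arrives. Retinoic acid, thyroid hormone, vitamin D, fatty acid and oxysterol receptors pair with a retinoid X receptor on direct repeats of a short half-site. Corepressors occupy many of these pairs without ligand and coactivators replace them with it. The remaining members are orphan receptors, some of which are tied to the circadian clock or to immediate early responses. In lung epithelium, glucocorticoid and retinoid receptors are known for their part in maturation and differentiation.

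Estimated mapped sequence ran from 9.72 to 14.7 gigabases per library, and depth in reads is unknown. The estimate is the most frequent ratio of deposited coverage to FPKM. Only 10.9% to 11.7% of genes at 1 FPKM or above in a library had that ratio. In each library 11410 to 11555 genes were at 1 FPKM or above, where FPKM are fragments per length of transcript, scaled to sequencing depth. Replicates are numbered 1 to 3 in each group and given in that order. Of 10 markers of lung epithelium, 7 averaged 1 FPKM or above in parental and 4 in resistant cells. The keratin genes KRT8 and KRT18 fell from 508 to 384 FPKM and from 431 to 274 FPKM, and KRT19, the highest marker in parental cells, from 574 to 4.58 FPKM. EPCAM, at 211 and 1.02 FPKM, and CDH1, at 68.6 and 0.0248 FPKM, fell far more than KRT8 and KRT18, as KRT19 did. NKX2-1 and FOXA2 were listed at 0 in the resistant libraries, and SFTPB and SFTPC were under 0.2 FPKM in every library. Summed levels of the other marker lists were 3.16 to 4.19 FPKM in parental and 24.8 to 31.0 FPKM in resistant libraries for 5 leukocyte genes, 2.40 to 2.97 and 18.01 to 21.9 FPKM for 7 fibroblast genes, 0.673 to 0.846 and 1.17 to 1.53 FPKM for 4 endothelial genes, and 54.9 to 63.3 and 19.7 to 27.4 FPKM for 5 hepatocyte genes, nearly all of it SERPINA1. The leukocyte sum was mostly CD14, with CD3E listed at 0 throughout and PTPRC under 0.05 FPKM. The fibroblast sum was mostly COL1A1, and PDGFRB also rose, from 0.0444 to 3.94 FPKM. COL1A2, at 0.195 and 0.530 FPKM, and COL3A1, at 0.0125 and 0.285 FPKM, were higher but below the level tested. LUM was at 0.0128 and 0.0217 FPKM, PDGFRA was at 0.0116 and 0.0233 FPKM, and DCN was listed at 0. The part of these marker levels in the receptor results was not tested.

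Expression divided the superfamily into 24 genes that averaged 1 FPKM or above in a group and 22 below it, NR2E3 included. In parental cells the receptor genes with the highest level per length were RARG (43.3 ± 0.553 FPKM, SD, n = 3 per group here and below), NR2F6 (30.9 ± 1.79), PPARG (26.8 ± 1.19), ESRRA (24.8 ± 0.619) and NR3C1 (22.4 ± 0.836). In resistant cells the order was NR2F6 (32.2 ± 2.19 FPKM), ESRRA (27.5 ± 2.70), NR1H2 (27.0 ± 2.08), NR3C1 (23.3 ± 1.10) and RARG (20.5 ± 1.57). Each neighbour in these orders differed from the next by more than the larger SD of the pair, except ESRRA and NR1H2 in resistant cells. The orders hold for FPKM. Deposited mean per-base coverage ordered the genes otherwise, with NR2F6 at 341, RARG at 244 and PPARG at 12.0 in parental cells. Summed over the 45 genes, the level was 297 ± 7.30 FPKM in parental and 270 ± 12.9 FPKM in resistant cells.

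The design sets the resistant derivative against its parent, to show which receptor genes differ between a line that survives osimertinib and one not exposed to it. Of the 24 tested receptor genes 9 rose and 10 fell past an FDR of 0.05, which is 79.2% of them, and 78% of all 12107 tested genes passed the same threshold. By direction, 37.5% of tested receptor genes were higher, beside 39.9% of all tested genes, and 41.7% were lower, beside 38.1%. On the log2(FPKM + 1) scale 8 receptor genes moved by 1 or more, which is 33.3%, beside 19.3% of all tested genes. They were 3 higher ones, beside a background of 9.95%, and 5 lower ones, beside 9.39%. The median change was 0.05 for the receptor genes and 0.01 for all tested genes. The median size of the change was 0.47 and 0.45. The groups did not overlap in 19 of the 24, beside 79.8% of tested genes. NR3C2 and THRB passed the level filter only through the resistant group and NR4A1 and NR6A1 only through the parental group. Their group means were thus on opposite sides of 1 FPKM by selection, which favours a call without forcing it. Of the 20 that averaged 1 FPKM or above on both sides, 15 were called, and 76% of all such genes were. All RNA came from whole cultures, in which fewer cells of a type and less RNA per cell cannot be told apart.

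**Figure D1:**
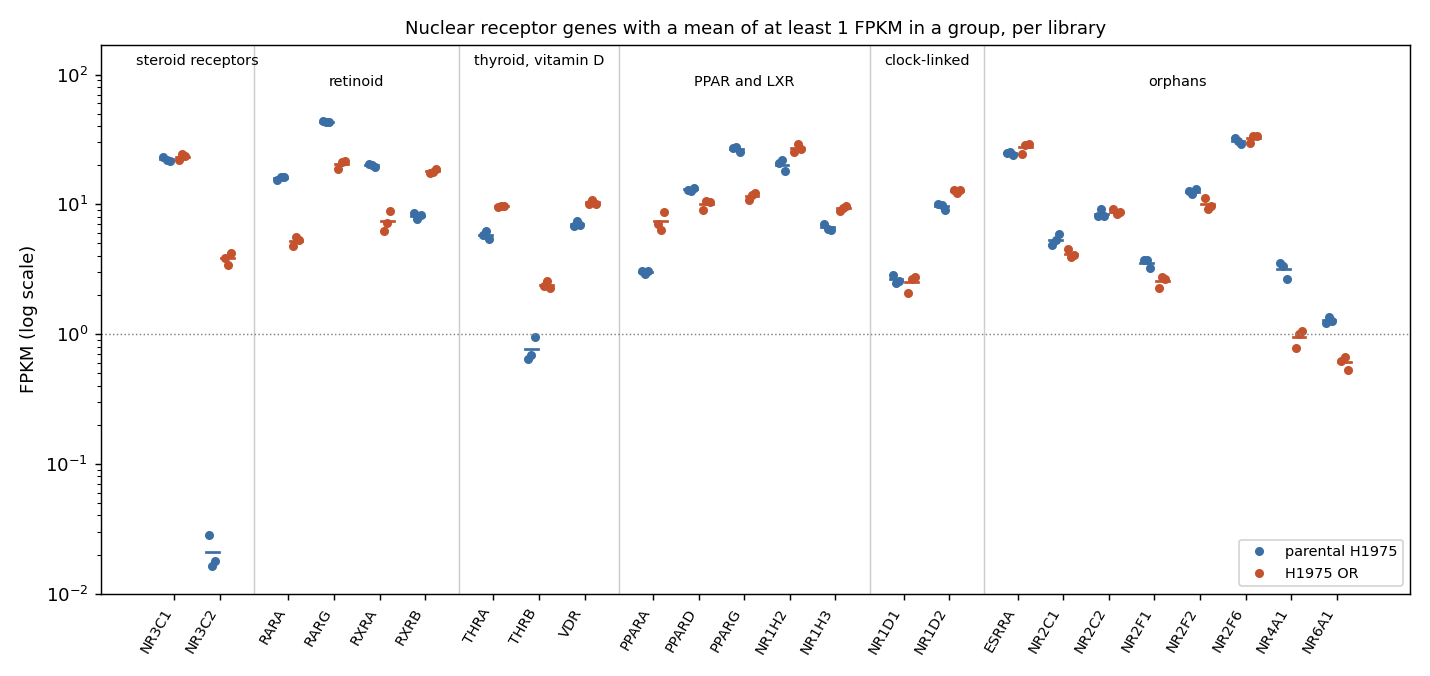
FPKM (log axis) of each of the 24 tested receptor genes, with 1 point per library, a short line at the group mean and a dotted line at 1 FPKM. Parental points of NR3C2 lie between 0.0164 and 0.0284 FPKM and resistant ones between 3.43 and 4.21, whereas the points of NR3C1 overlap.

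**Figure D2:**
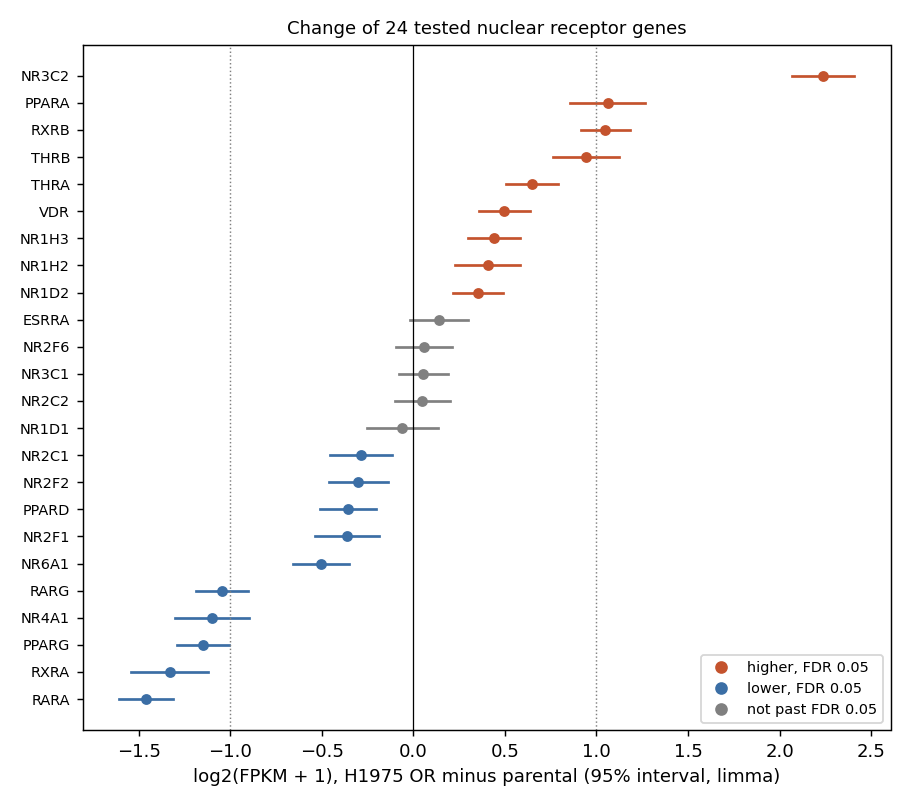
Change of the 24 tested receptor genes on the log2(FPKM + 1) scale, resistant minus parental, with the 95% interval of limma and dotted lines at a change of 1 in either direction. NR3C2 lies at 2.24 and RARA at -1.46, and the 5 grey genes did not pass an FDR of 0.05.

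Among the steroid receptors NR3C2 rose and NR3C1 did not pass the test, and the difference between these 2 changes was not tested. NR3C2, the mineralocorticoid receptor, which binds aldosterone and cortisol (chr4:148999913-149365850, GRCh37), gave 0.0284, 0.0164 and 0.0179 FPKM in the parental replicates, against 3.84, 3.43 and 4.21 FPKM in the resistant replicates. All resistant libraries were far above all parental ones, and this was the largest rise among the receptor genes (log2 change 2.24 ± 0.08 SE, limma adjusted p = 5.9e-11). Its size depends on the pseudocount, since the parental level is near 0, and was 5.02 with a pseudocount of 0.1. NR3C2 passed the level filter only through the resistant group, so its p-value is not independent of that selection. Mean per-base coverage in the deposited tables was 0.128 in parental and 18.4 in resistant libraries. NR3C1, the glucocorticoid receptor (chr5:142657496-142815077), was at 22.4 ± 0.836 and 23.3 ± 1.10 FPKM with overlapping groups, a log2 change of 0.05 (limma adjusted p = 0.43) and a 95% interval from -0.08 to 0.19. The mineralocorticoid receptor gene thus made up 0.0926% of the summed FPKM of the pair in parental and 14.1% in resistant cells. These shares hold for FPKM only, since mean per-base coverage of NR3C1 was 37.2 in parental and 33.3 in resistant libraries. The estrogen receptor genes ESR1 and ESR2 and the progesterone receptor gene PGR were under 1 FPKM in both groups. ESR2 gave 0.402, 0.403 and 0.393 FPKM in the parental replicates, against 0.236, 0.256 and 0.335 FPKM in the resistant replicates, with no overlap (38.2% of all genes under 1 FPKM in both groups had none), and SYNE2, which overlaps it on the opposite strand, was at 6.54 and 7.37 FPKM.

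Both retinoic acid receptor genes that were expressed fell. RARA, the alpha form (chr17:38465444-38513094), gave 15.5, 16.3 and 16.2 FPKM in the parental replicates, against 4.73, 5.57 and 5.29 FPKM in the resistant replicates. The lowest parental library was well above the highest resistant one (log2 change -1.46 ± 0.07 SE, limma adjusted p = 8.8e-10). RARG, the gamma form (chr12:53604354-53626764), had the highest FPKM of the receptor genes in parental cells. It gave 44.0, 43.2 and 42.9 FPKM in the parental replicates, against 18.8, 21.1 and 21.7 FPKM in the resistant replicates (-1.04 ± 0.07, limma adjusted p = 1.6e-08). The groups were again apart. RARB, the beta form and a textbook target of retinoic acid, was under 0.05 FPKM in every library. Summed FPKM of the 3 genes was 59.4 ± 0.192 in parental and 25.8 ± 1.94 in resistant cells, and RARG made up 73.0% and 79.7% of it. These shares, too, hold for FPKM only. Deposited mean per-base coverage was 244 and 102 for RARG, and 22.4 and 6.19 for RARA.

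Their partners, the retinoid X receptors, exchanged places in FPKM, but not in deposited mean per-base coverage. That coverage was 14.1 for RXRA and 62.6 for RXRB in parental cells, and 4.02 and 116 in resistant cells. RXRA (chr9:137208944-137332431) gave 20.3, 20.2 and 19.5 FPKM in the parental replicates, against 6.23, 7.23 and 8.80 FPKM in the resistant replicates (log2 change -1.33 ± 0.10 SE, limma adjusted p = 1.4e-07). RXRB (chr6:33161365-33168630) gave 8.50, 7.74 and 8.34 FPKM in the parental replicates, against 17.5, 17.7 and 18.8 FPKM in the resistant replicates (1.05 ± 0.06, limma adjusted p = 9.2e-09). Neither gene's groups overlapped. RXRA took 70.9% ± 1.23 of the summed RXR level in parental cells and 29.0% ± 2.79 in resistant cells, and RXRB took 29.1% ± 1.23 and 71.0% ± 2.79. The sum itself was 28.2 ± 0.509 and 25.4 ± 2.001 FPKM, with the highest resistant library at 27.6 and the lowest parental one at 27.8. RXRG was listed at 0 in all libraries except resistant replicate 2, at 0.0122 FPKM. RXRB shares 409 of its 7266 bases with SLC39A7 on the opposite strand, a zinc transporter gene that rose from 35.5 ± 1.26 to 85.8 ± 3.86 FPKM, and whether the counting used strand is not known here. The part of SLC39A7 reads in the RXRB level was not tested.

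**Figure D3:**
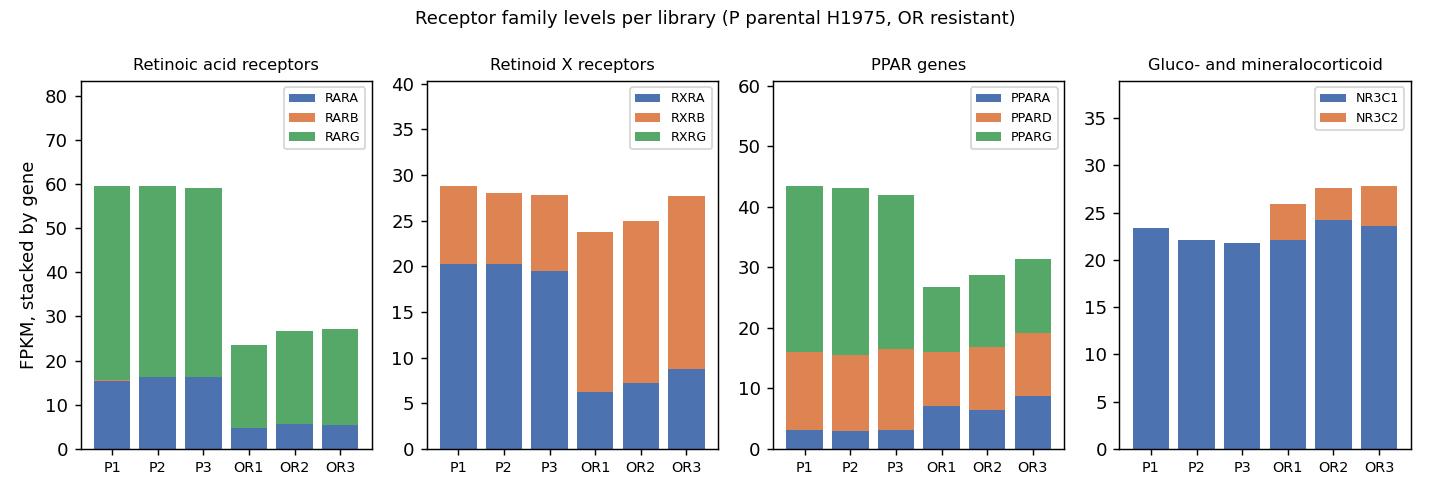
FPKM stacked by gene in each library (P1 to P3 parental, OR1 to OR3 resistant) for the retinoic acid receptors, the retinoid X receptors, the PPAR genes and the corticoid receptors, each on its own linear axis from 0. The RAR stack falls from 59.4 to 25.8 FPKM on average, while the RXR stack goes from 28.2 to 25.4 FPKM. RXRA and RXRB exchange their shares of the summed FPKM.

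RefSeq promoter windows (GRCh38.p14, 250 bases before to 50 after a start) were found for 41 of the 46 genes, 96 windows in all, and were searched for receptor half-sites. Direct repeats were built from the half-site AGGTCA and its variants, which read AGTTCA or read GGTTCA or read AGGTGA, in any pair and 1 orientation, with 1 to 5 bases between them, on both strands. Among the member genes only RARB held one, with a spacing of 5, the spacing that RAR and RXR pairs are known to bind, and 0.12% of all 35116 windows held one of that spacing. Spacings of 1 to 4 were in 0 of the 96 windows of member genes, and in 0.0484% to 0.108% of all windows. Of the genes on the pathway lists CYP26A1, a retinoic acid hydroxylase gene, also held one with 5 bases between, and CD14 held one with 4. The RARB and CYP26A1 stretches are shown because these genes carry the repeat, with the repeat in capitals, at bases -53 to -37 and -90 to -74 from the start.
RARB, chr3:25428160-25428262, plus strand: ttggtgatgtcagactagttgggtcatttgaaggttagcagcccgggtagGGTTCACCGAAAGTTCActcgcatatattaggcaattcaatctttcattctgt
CYP26A1, chr10:93073753-93073869, plus strand: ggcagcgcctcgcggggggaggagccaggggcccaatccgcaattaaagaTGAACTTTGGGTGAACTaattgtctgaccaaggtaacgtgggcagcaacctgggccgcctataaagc
Both genes were near 0 in these cells: RARB averaged 0.0180 and 0.0318 FPKM and CYP26A1 0.0301 and 0.0170 FPKM in parental and resistant cells. In CYP26A1 the repeat reads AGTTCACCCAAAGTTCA on the opposite strand.

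The single half-site AGGTCA, on either strand and with any overlap with the repeats above, was found in 16 of the 96 windows of member genes, or 16.7%, beside 13.8% of all windows, and in 11 of the 41 member genes, or 26.8%, beside 16.5% of all genes. AGAACA, the half-site of glucocorticoid and mineralocorticoid receptors, was in 14 of the 96, or 14.6%, beside 14.8%, and in 12 of the 41 genes, or 29.3%, beside 17.5%. A gene with several starts has several windows, and the number of windows differs between genes. Of the 8 receptor genes that changed by at least 1 on the log2 scale, RARA and PPARG held AGGTCA, and the other 6 did not hold these letters in the windows searched. These 6 include RARG, RXRA and NR4A1, which fell by at least 1. Stretches of RARA and PPARG before the start are shown with AGGTCA in capitals, because these genes hold it. RARA has 3 windows and PPARG has 6, and not all of them hold AGGTCA. A link between the half-site and the change was not tested. The libraries do not tell which start was used.
RARA, chr17:40308930-40308995, plus strand: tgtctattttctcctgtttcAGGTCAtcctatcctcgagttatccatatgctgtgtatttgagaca
PPARG, 1 start, chr3:12287118-12287229, plus strand: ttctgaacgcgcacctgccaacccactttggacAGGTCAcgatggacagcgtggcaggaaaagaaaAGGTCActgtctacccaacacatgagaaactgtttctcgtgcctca
PPARG, another start, chr3:12289006-12289059, plus strand: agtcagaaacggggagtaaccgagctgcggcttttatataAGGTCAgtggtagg
A match of letters is a description of the window and not a measured binding site.

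The thyroid hormone and vitamin D receptors rose. THRA (chr17:38214543-38250120) gave 5.82, 6.22 and 5.44 FPKM in the parental replicates, against 9.56, 9.77 and 9.71 FPKM in the resistant replicates (log2 change 0.65 ± 0.06 SE, limma adjusted p = 1.2e-06). THRB (chr3:24158651-24536773) gave 0.648, 0.686 and 0.955 FPKM in the parental replicates, against 2.33, 2.57 and 2.25 FPKM in the resistant replicates. The groups were apart in both genes, and the THRB change of 0.94 ± 0.08 SE (limma adjusted p = 3.7e-07) was 1.54 with a pseudocount of 0.1. THRB passed the level filter only through the resistant group, so its p-value is not independent of that selection. The THRA gene overlaps NR1D1 by 1081 bases and MED24 by 2926 bases, both on the opposite strand, and reads of these genes cannot be told apart there without strand. NR1D1 did not pass the test, and MED24 was at 20.8 and 18.7 FPKM. THRA and RARA lie near each other on chromosome 17 and moved in opposite directions. VDR, the vitamin D receptor (chr12:48235320-48336831), rose from 7.05 ± 0.349 to 10.4 ± 0.398 FPKM (0.50 ± 0.06, limma adjusted p = 1.2e-05).

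Receptors of fatty acids were divided by form. PPARG, the gamma form, known for lipid storage and differentiation (chr3:12328867-12475855), gave 27.4, 27.6 and 25.5 FPKM in the parental replicates, against 10.8, 11.8 and 12.2 FPKM in the resistant replicates (log2 change -1.15 ± 0.07 SE, limma adjusted p = 6e-09). PPARA, the alpha form, known for fatty acid oxidation (chr22:46546424-46639653), gave 3.04, 2.89 and 3.04 FPKM in the parental replicates, against 7.01, 6.38 and 8.74 FPKM in the resistant replicates (1.06 ± 0.09, limma adjusted p = 4.5e-07). The 2 forms were thus apart between groups in opposite directions. PPARD, the delta form, fell from 13.0 ± 0.374 to 9.98 ± 0.884 FPKM (-0.36 ± 0.07, limma adjusted p = 0.00047). Of the summed PPAR level, which was 42.9 ± 0.804 and 28.9 ± 2.33 FPKM, PPARG took 62.6% in parental and 40.03% in resistant cells. PPARD took 30.5% and 34.5%, and PPARA took 6.98% and 25.4%. These shares hold for FPKM only. Deposited mean per-base coverage was highest for PPARD in both groups, at 129 and 85.1. It was 12.0 and 4.33 for PPARG, and 4.01 and 8.89 for PPARA.

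The oxysterol receptors, or LXRs, rose together. NR1H2, the beta form, went from 20.2 ± 2.07 to 27.0 ± 2.08 FPKM (log2 change 0.41 ± 0.08 SE, limma adjusted p = 0.00057) and NR1H3, the alpha form, from 6.63 ± 0.371 to 9.35 ± 0.461 FPKM (0.44 ± 0.07, limma adjusted p = 5.2e-05). The share of NR1H2 in their summed FPKM was 75.2% ± 1.87 and 74.3% ± 1.22. Deposited mean per-base coverage would give other shares, at 90.4 and 101 for NR1H2 and 7.85 and 11.1 for NR1H3. NR1H3 overlaps ACP2, on the opposite strand, by 607 bases, and ACP2 rose from 8.34 to 15.6 FPKM. The bile acid receptor gene NR1H4 and the xenobiotic receptor gene NR1I2 were under 0.01 FPKM in every library. NR1I3, the constitutive androstane receptor, was below the level tested. It gave 0.256, 0.295 and 0.264 FPKM in the parental replicates, against 0.621, 1.06 and 0.697 FPKM in the resistant replicates, with no overlap. Of all genes under 1 FPKM in both groups, 38.2% had none. TOMM40L, which overlaps NR1I3 on the opposite strand, was at 8.97 and 10.8 FPKM.

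Of the receptors tied to the circadian clock, NR1D2, a REV-ERB repressor of clock genes, rose from 9.62 ± 0.542 to 12.6 ± 0.379 FPKM (log2 change 0.35 ± 0.06 SE, limma adjusted p = 0.00022). NKIRAS1, opposite to it over 1332 bases, rose from 3.22 to 6.03 FPKM. Its relative NR1D1 was at 2.63 ± 0.193 and 2.50 ± 0.373 FPKM, with overlapping groups and a 95% interval of the log2 change from -0.25 to 0.13. RORA, an activator at the same sites, was under 0.11 FPKM in every library, and RORB was listed at 0 in 4 of them.

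The orphan receptors mostly fell or did not pass. NR4A1, or NUR77, an immediate early gene (chr12:52416616-52453291), gave 3.50, 3.37 and 2.67 FPKM in the parental replicates, against 0.788, 0.997 and 1.05 FPKM in the resistant replicates. Every resistant library was below every parental one (log2 change -1.10 ± 0.09 SE, limma adjusted p = 2.3e-07). Of its relatives, NR4A2 was at 0.709 ± 0.0720 and 0.822 ± 0.0733 FPKM, and NR4A3 was under 0.1 FPKM in every library. NR6A1, or GCNF, known from germ cells (chr9:127279554-127533589), gave 1.22, 1.35 and 1.27 FPKM in the parental replicates, against 0.619, 0.661 and 0.533 FPKM in the resistant replicates (-0.51 ± 0.07, limma adjusted p = 2.6e-05), and its change was -0.97 with a pseudocount of 0.1. NR4A1 and NR6A1 passed the level filter only through the parental group, so their p-values are not independent of that selection.

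The COUP-TF genes fell by less. NR2F1 went from 3.56 ± 0.263 to 2.55 ± 0.267 FPKM (log2 change -0.36 ± 0.08 SE, limma adjusted p = 0.0012) and NR2F2 from 12.5 ± 0.492 to 10.0 ± 1.03 FPKM (-0.30 ± 0.07, limma adjusted p = 0.0024). NR2F1-AS1, opposite to NR2F1 over 2312 bases, was at 3.90 and 3.22 FPKM. The testicular receptor gene NR2C1 fell from 5.32 ± 0.524 to 4.17 ± 0.298 FPKM (-0.29 ± 0.08, limma adjusted p = 0.005). Their relatives NR2C2, at 8.47 and 8.79 FPKM, and NR2F6, at 30.9 and 32.2 FPKM, did not pass, with 95% intervals of the log2 change from -0.10 to 0.20 and from -0.09 to 0.21. MRPS25, at 22.8 and 21.1 FPKM, lies opposite to NR2C2 over 11141 bases, and FGD5-AS1, at 28.5 and 26.3 FPKM, over 841 bases. ESRRA, an estrogen-related receptor known from mitochondrial gene control, was at 24.8 ± 0.619 and 27.5 ± 2.70 FPKM and did not pass (limma adjusted p = 0.098, 95% interval from -0.02 to 0.30). It passed without resistant replicate 1 (limma adjusted p = 0.0078), on TPM (0.028) and after quantile normalization (0.039), and over all alternatives run the adjusted p was at most 0.32. TRMT112 shares 284 bases with it on the opposite strand and was at 79.0 and 89.1 FPKM.

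Of the 21 receptor genes of the series table under 1 FPKM in both groups, 17 had no group mean of 0.1 FPKM, with 0.105 FPKM as their highest value in a library. These were ESR1, ESRRB, ESRRG, PGR, RARB, RXRG, RORA, RORB, NR0B1, NR0B2, NR1H4, NR1I2, NR2E1, NR4A3, NR5A1, HNF4A and HNF4G, which include receptors known from liver, gonad, adrenal and retina. The NR0B2 gene lies wholly opposite NUDC, which was at 72.7 and 60.3 FPKM. ESR1 shares 7936 bases with SYNE1 on the opposite strand, which was at 0.0118 and 1.93 FPKM. ESRRG and NR2E1 were listed at 0 in every library. NR5A2, the liver receptor homologue, was at 0.0988 ± 0.0268 and 0.156 ± 0.0369 FPKM. With no filter on level, 6 of the 19 genes with a value above 0 were called, beside 31.2% of all genes under 1 FPKM in both groups. In that fit 61.1% of all 18038 genes were called. The 6 were NR1I3 and NR4A3, higher, and ESR1, ESR2, NR5A1 and RORA, lower, and were named after their values were seen.

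Genes around the receptors were described from 12 chosen lists with 172 distinct genes, of which 126 were tested, 43 higher and 62 lower. Not every gene on a target list is a textbook target of that receptor. The placement of single genes, such as ABCA3 for the LXRs and CA9 for VDR, was not checked. For comparison, 39.9% of all tested genes were higher and 38.1% lower. Of the 126, 16 passed the level filter through 1 group only, which favours a call without forcing it. They were HR, HSD11B2, SULT2B1, AKR1C1, AKR1C3, CYP24A1, CYP27A1, SCNN1A, RARRES1, APOE, CA9, PER2, BHLHE41, GREB1, MYB and IGFBP4. Of 17 coactivators, which open chromatin at bound receptors, 6 rose and 6 fell, with a median of 0.11 (8 and 4 on TPM, 8 and 5 after quantile normalization). NCOA7 (log2 change 1.20) and CARM1 (1.12), an arginine methyltransferase, rose most, and NCOA2 (-1.01) and NCOA3 (-0.70), members of the p160 family, fell most. Of 15 corepressors 3 rose and 10 fell, with a median of -0.31. NCOR1, one of the platforms of repression, rose from 18.2 ± 1.25 to 30.0 ± 0.573 FPKM. NRIP1 (-1.30) and TBL1XR1 (-1.28) fell most on the log2(FPKM + 1) scale. HR, a low corepressor gene, was at 1.67 ± 0.0955 and 0.290 ± 0.0739 FPKM, the larger ratio on the linear scale. TBL1X (0.20) rose, a call that ended without parental replicate 3 (limma adjusted p = 0.073, leaving 1 corepressor that rose) and without resistant replicate 3 (0.081). Of 12 chaperones and cochaperones of steroid receptors 1 rose and 5 fell, with a median of -0.06. This split was 3 and 5 on TPM and 4 and 4 after quantile normalization, 2 rose without resistant replicate 1, and 2 rose and 3 fell without resistant replicate 3. HSP90AA1, an inducible HSP90, fell from 932 ± 42.8 to 256 ± 22.0 FPKM and HSP90AB1 by 0.75 on the log2 scale, and FKBP5, also a target of the glucocorticoid receptor, rose from 13.0 ± 1.18 to 21.4 ± 1.54 FPKM.

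Retinoid metabolism and carrier genes mostly fell. The 8 tested ones had a median of -0.82, with 7 lower and 0 higher past the threshold, and the remaining one, the retinol uptake receptor gene STRA6, did not pass (limma adjusted p = 0.22). At an unadjusted p under 0.05 the count of genes that rose was also 0, and with no filter on level 1 rose. ALDH1A2, below the level tested, was at 0.0289 ± 0.0161 and 0.494 ± 0.106 FPKM, with every resistant library above every parental one. Groups did not overlap in 38.2% of all genes under 1 FPKM in both groups. CRABP2, which carries retinoic acid to its receptors, was at 101 ± 5.74 and 2.11 ± 0.591 FPKM, and ALDH1A3, which makes retinoic acid, at 17.1 ± 1.14 and 1.66 ± 0.0967 FPKM. The retinaldehyde reductase gene DHRS3 fell by 1.33 and the retinoic acid hydroxylase gene CYP26B1 by 0.71 on the log2 scale. Retinoic acid receptor targets, a list that shares CRABP2, DHRS3, CYP26B1 and STRA6 with the former, were higher in 3 and lower in 4 of 9 tested, with a median of -0.12. RARRES1 (1.11) and RAI14 (0.77) were highest among those that rose, and CRABP2 (-5.06) and BHLHE40 (-1.85) fell most.

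Enzymes of the other ligands went both ways, with 7 of 14 higher, 7 lower and a median of 0.04. AKR1C3, a reductase of steroids and prostaglandins, rose from 0.242 ± 0.0726 to 33.3 ± 5.11 FPKM and AKR1C1 by 2.70 on the log2 scale. AKR1C genes are near-identical copies, and the sources used here do not state how reads shared among them were counted. HSD11B2, which inactivates cortisol beside the mineralocorticoid receptor, was at 1.64 ± 0.224 FPKM in parental and 0.215 ± 0.0152 FPKM in resistant cells. CYP24A1, the vitamin D 24-hydroxylase and the textbook VDR target, fell from 15.3 ± 1.31 to 0.155 ± 0.0135 FPKM, and SULT2B1 fell by 1.12 on the log2 scale.

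Target lists held genes in both directions. For the glucocorticoid receptor, 8 of 15 targets were higher and 5 lower, with a median of 0.48, while NR3C1 did not pass. SGK1, a kinase also induced by the mineralocorticoid receptor, rose from 2.79 ± 0.0652 to 24.4 ± 7.05 FPKM and BIRC3 by 2.26 on the log2 scale. SCNN1A, a subunit of the epithelial sodium channel, fell by 1.61 and ANGPTL4 by 1.51. TSC22D3, another standard target, was at 8.95 ± 1.04 and 10.7 ± 2.04 FPKM and did not pass. For the PPARs, 3 of 12 targets were higher and 7 lower, with a median of -0.47. PLIN2, a lipid droplet protein gene, fell from 101 ± 2.83 to 25.7 ± 3.26 FPKM and ANGPTL4 came next. SLC25A20 (0.49) and ETFDH (0.38), both of fatty acid oxidation, rose most. For the LXRs, 1 of 8 targets was higher and 7 lower, with a median of -0.51, where both LXR genes rose. The one that rose was ABCA3 (3.26), a lipid transporter of alveolar cells, and the largest falls were those of SCD (-1.60) and APOE (-1.42). The cholesterol exporter gene ABCA1 fell from 8.94 ± 0.419 to 4.34 ± 0.360 FPKM.

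For VDR, 3 of 5 tested targets were higher and 1, CYP24A1 (-3.81), lower, with a median of 0.95. With no filter on level 3 were higher and 4 lower. CD14 (2.93), also on the leukocyte list above, and CA9 (1.38) rose most. Of 14 clock genes 7 rose and 7 fell, with a median of 0.03. NPAS2 (1.39) and DBP (0.49) rose most and BHLHE40 (-1.85) and PER2 (-1.15) fell most, and ARNTL, which REV-ERB proteins repress, rose from 5.84 ± 0.212 to 8.48 ± 0.334 FPKM. For the estrogen receptors, 3 of 6 targets were higher and 2 lower, with a median of 0.13. XBP1 (2.26) and GREB1 (0.96) were highest and IGFBP4 (-1.71) and MYB (-1.61) lowest, in cells where ESR1 was under 0.06 FPKM in every library.

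**Figure D4:**
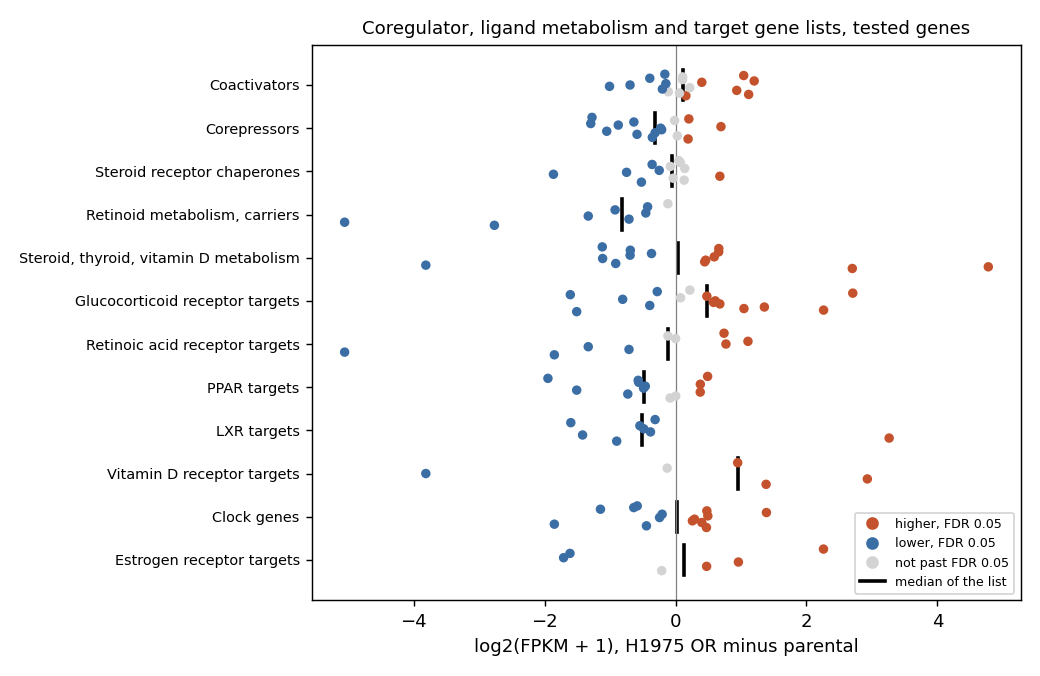
Change of each tested gene of the 12 lists on the log2(FPKM + 1) scale, resistant minus parental, coloured by its call at an FDR of 0.05, with a black bar at the median of the list. Retinoid metabolism and carriers have a median of -0.82 and no tested gene that rose past the threshold, while other lists hold genes in both directions.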

How the data were processed

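The authors deposited FPKM in a series table with 1 column per library, and coverage, FPKM and TPM per gene in 1 file per library, per the file headers. The genome build was GRCh37 per the submitters' processing notes. These notes list DESeq without saying where it was used. Aligner, quantifier, annotation release and strand use: not given in the sources used here. Coverage is a signal the authors deposited, used here for values beside FPKM and, divided by FPKM, to estimate mapped gigabases. Of the deposited TPM values, the log2 was tested as an alternative.

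The test was limma 3.58.1 (R 4.3.3) on log2(FPKM + 1). It compared the 2 groups, with trend and robust options on and no other covariate. Genes entered when 1 group averaged 1 FPKM or above, and two-sided p-values were adjusted by Benjamini-Hochberg over all 12107 of them. The scale understates the change of low genes. P-values measure the spread among libraries of 1 parental line and 1 derivative.

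The receptor genes and lists were chosen with earlier results of these data known. Receptor genes past an FDR of 0.05 with a change of at least 0.5 are given in every library, as are those under 1 FPKM in both groups whose groups do not overlap and whose higher mean is at least 0.1 FPKM. Other receptor genes are given by group means, and up to 2 list genes per direction by size of change. Other genes named were chosen after their values were seen. Planned protein stretches are not used here. Alternatives were pseudocounts of 0.1 and 0.5, other filters, TPM, other scalings, plain moderation, a replicate block and leaving out each library.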

Additional observations from a re-analysis of the deposited data

Results flagged for a closer look

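NR2E3, a photoreceptor orphan receptor, is outside the series table and was read only in the tables of the single libraries. It gave 0.0514, 0.0264 and 0.0841 FPKM in the parental replicates, against 0.193, 0.213 and 0.292 FPKM in the resistant replicates, with a resistant mean of 0.233 FPKM above the parental level. Mean per-base coverage was 0.349 and 1.31. It was not part of the test.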

How the results depend on the processing

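All 19 called receptor genes kept their direction and call in each of the 15 alternatives that tested them. Deposited coverage per estimated gigabase had the same direction in 19 of 19. It comes from the same reads and is scaled by an estimate taken from FPKM, so it is not separate support. NR6A1 was not tested with a mean of at least 1 FPKM over all libraries. Counts of members higher in resistant cells ran from 9 to 11, and of members lower in resistant cells from 9 to 14, the most with no filter on low values. Of 942 values of single genes, 936 kept direction and call. The log2 fold change of NR1D1, which was not called, lay between -0.11 and 0.03 when single libraries were left out, and turned to 0.0314 without resistant replicate 1. Of 360 list counts 349 stayed within 1.5 times. With no filter the enzymes of steroids, thyroid hormone and vitamin D had 11 higher, PPAR targets 5 higher, LXR targets 2 higher and VDR targets 4 lower.

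The replicate numbers gave no sign of pairing: deviations of same-numbered libraries correlated at -0.14, 0.08 and 0.10, beside -0.16 to 0.08 for differently numbered ones. With 3 libraries per group this cannot show that pairing is absent. With the replicate block, 9 receptor genes were higher and 10 lower and no receptor call changed. The count of all tested genes higher in resistant cells was then 4805, and of all tested genes lower in resistant cells 4617.

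Depth in reads is unknown, so no counting interval can be given for receptor genes near 0.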
